A study of Mus musculus with 4 samples.

Results

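Among 3448 CN4 neural stem cells in the normalized table, 134 (3.89%) carried 4 or more of the 7 transcripts *Abca1*, *Shisa9*, *Paqr8*, *Kcnn2*, *Cacng5*, *Pltp*, and *Rasl11a*, and lacked *Mki67*, *Top2a*, or both. These 134 cells, called members below, are described here, out of 15255 cells in the normalized tables of the 4 lines. They were compared with cells of the same line that had at most 1 of the 7 genes and likewise not both *Mki67* and *Top2a*, of which there were 1211. A further 474 nondividing cells with 2 or 3 of the genes belonged to neither group, and 1629 cells had reads of both *Mki67* and *Top2a* and were set aside as dividing. Because measured values chose the members, the levels of the 7 genes, *Mki67*, and *Top2a* in them are a description. Every other gene was read from the same cells, and no test was made.

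The 4 neural stem cell (NSC) lines were derived from 129/Sv mouse epiblast stem cells and kept in medium containing EGF and FGF2 at 10 ng/ml each. CN4 also received 2 µM CHIR99021, an inhibitor of GSK3 that activates Wnt signaling. XN4 and XN1 received 10 µM XAV939, which inhibits Wnt signaling, and KN1 received neither compound. Per the study, the XAV939 of XN1 came from another supplier than that of XN4 and formed crystals in the medium. The study holds that its effective concentration was lower for this reason. Growing cells were dissociated with Accutase, kept in CellCover at low temperature for up to 2 weeks, and captured in microwells of a BD Rhapsody cartridge, with 1 library for each line. Each line is 1 sample, cells are not replicates of it, and a line cannot be told apart from its library. Intervals of shares and of summed reads below are exact 95% intervals that cover counting error only. Those of summed reads treat each read as independent.

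The 7 genes have different roles. *Abca1* encodes a transporter that exports cholesterol and phospholipid to apolipoproteins such as ApoE, and *Pltp* encodes a secreted phospholipid transfer protein. Both are known targets of the liver X receptors, nuclear receptors that sense oxidized cholesterol. *Shisa9* and *Cacng5* encode auxiliary proteins of AMPA-type glutamate receptors, *Kcnn2* encodes a calcium-activated potassium channel, *Paqr8* encodes a membrane progestin receptor, and *Rasl11a* encodes a small GTPase of the Ras family. In the nervous system, lipid export of this kind is best known from astrocytes, which arise from the same radial glia-type stem cells that NSC lines resemble.

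The positions of 6 of the 7 genes in the GRCm38 mouse genome (GENCODE M21) are given here. *Paqr8* is at chr1:20890606-20939650, *Pltp* at chr2:164839518-164857711, *Abca1* at chr4:53030787-53159895, *Rasl11a* at chr5:146845071-146847726, *Cacng5* at chr11:107874605-107915055, and *Shisa9* at chr16:11984113-12270902. The lengths of all 7 ranged from 2.66 kb for *Rasl11a* to 417 kb for *Kcnn2*.

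Promoters, here 250 bases before to 50 bases after a start site in RefSeq on GRCm38.p6, are shown for *Abca1*, which names the cells, and for 3 of the genes that were lowest in the members. The searched letters are in capitals. For *Abca1* these are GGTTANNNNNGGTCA or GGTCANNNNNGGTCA on either strand, the form of direct repeat that liver X receptors bind. For the others they are TTCCCGC or, on the other strand, GCGGGAA, the core that E2F cell cycle factors bind. The start and end of each window are given with its strand.
Abca1 (chr4:53159846-53160145, minus strand): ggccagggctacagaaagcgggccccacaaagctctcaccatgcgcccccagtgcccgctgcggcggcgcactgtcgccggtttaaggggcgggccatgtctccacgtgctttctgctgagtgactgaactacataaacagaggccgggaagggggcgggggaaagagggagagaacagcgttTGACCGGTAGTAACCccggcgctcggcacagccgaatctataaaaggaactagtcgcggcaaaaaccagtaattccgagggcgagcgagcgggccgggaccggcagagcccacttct
Uhrf1 (chr17:56303087-56303386, plus strand): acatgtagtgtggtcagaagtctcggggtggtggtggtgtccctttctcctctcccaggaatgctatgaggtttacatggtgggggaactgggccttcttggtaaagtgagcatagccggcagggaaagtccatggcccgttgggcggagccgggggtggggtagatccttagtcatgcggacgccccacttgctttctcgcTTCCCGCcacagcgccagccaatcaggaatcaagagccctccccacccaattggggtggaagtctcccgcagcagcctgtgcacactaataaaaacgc
Rad51ap1 (chr6:126939538-126939837, minus strand): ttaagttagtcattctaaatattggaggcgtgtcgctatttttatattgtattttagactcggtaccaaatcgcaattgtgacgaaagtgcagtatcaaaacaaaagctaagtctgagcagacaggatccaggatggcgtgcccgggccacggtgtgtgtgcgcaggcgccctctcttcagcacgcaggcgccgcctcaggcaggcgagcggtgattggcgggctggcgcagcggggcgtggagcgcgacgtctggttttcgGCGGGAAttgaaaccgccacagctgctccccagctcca
E2f7 (chr10:110745189-110745488, plus strand): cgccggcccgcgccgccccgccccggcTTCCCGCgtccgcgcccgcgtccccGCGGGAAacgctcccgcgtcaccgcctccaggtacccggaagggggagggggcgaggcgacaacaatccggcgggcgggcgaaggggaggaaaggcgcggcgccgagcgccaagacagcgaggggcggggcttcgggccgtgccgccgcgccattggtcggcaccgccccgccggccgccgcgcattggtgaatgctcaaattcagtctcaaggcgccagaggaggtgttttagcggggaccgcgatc
The *Abca1* window held the repeat once, beginning 67 bases before the start site. Of 27025 genes with a promoter in the table, 31 (0.115%) held it. Of the other rule genes, *Paqr8*, *Cacng5*, *Pltp*, and *Rasl11a* had a promoter in the table and none of these 4 windows held either motif. These matches are letters in a window and show no binding.

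Within the members, *Paqr8* was captured most often and *Cacng5* least often. A read of *Paqr8* was found in 117 of 134 members (87.3%), of *Shisa9* in 95 (70.9%), of *Abca1* in 94 (70.1%), of *Pltp* in 93 (69.4%), of *Kcnn2* in 86 (64.2%), of *Rasl11a* in 76 (56.7%), and of *Cacng5* in 47 (35.1%). Where it was captured, *Abca1* had a median of 2.5 reads a cell with a range of 1 to 15, and *Rasl11a* had a median of 3 reads with a range of 1 to 19. *Kcnn2* and *Cacng5* had a median of 1 read. The rule therefore rests on few reads in each cell, and a cell with 3 of the genes may differ from one with 4 by a single read.

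The cells just outside the rule were 174 nondividing cells with 3 of the genes, and those just inside were 81 with 4. Their median depth was 6600 reads and 7417 reads, respectively. A further 37 members had 5 of the genes, 13 had 6, and 3 had all 7.

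How often the 7 genes were found together is given as a description, since the rule used these values. Over all CN4 cells, 174 had at least 4 of them, whereas the product of capture rates within 20 strata of total reads gave 44.6, a ratio of 3.90. Among nondividing CN4 cells the count was 134 against 52.5, a ratio of 2.55. In XN1 the ratio over all cells was 2.14, from 85 cells. XN4 had 3 such cells against 1.44, and KN1 had 0.

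Each gene was also read in cells chosen by the other 6 genes alone. The 7 genes were chosen together with results of these data known, so these shares are a description too. Nondividing cells with at least 3 of the other 6 genes were paired with cells of like depth that had at most 1. *Shisa9* was found in 38.5% (32.4 to 44.8) of 247 cells chosen this way, against 4.45% (2.24 to 7.83) of their partners. *Abca1* was found in 38.7% (32.5 to 45.1) of 243 cells, against 11.1% (7.45 to 15.8). For *Paqr8* the shares were 66.1% and 26.6%, for *Kcnn2* 34.3% and 8.37%, and for *Pltp* 41.7% and 20.2%. *Cacng5* showed a smaller gap of 17.9% (13.5 to 23.1) against 8.40% (5.34 to 12.4). For *Rasl11a*, 32.9% (26.9 to 39.4) against 27.3% (21.6 to 33.5) overlapped in their intervals. The gap for *Rasl11a* was 5.63 points here and 10.8 points when cells were matched on genes detected.

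The read table of all CN4 cells allowed the same comparison in cells that the normalized table leaves out. Of 14709 such cells, 12144 were within the range of reads and genes detected of the normalized table, and 474 of them (3.90%) met the rule. They come from the same library and culture, so they repeat the measurement in other cells and not in another sample. In these cells *Rasl11a* was found in 33.2% (29.8 to 36.6) of cells with at least 3 of the other 6 genes and in 24.8% (21.8 to 28.1) of their partners. *Cacng5* was found in 16.4% (14.1 to 18.98) and 6.72% (5.18 to 8.55).

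**Figure D1:**
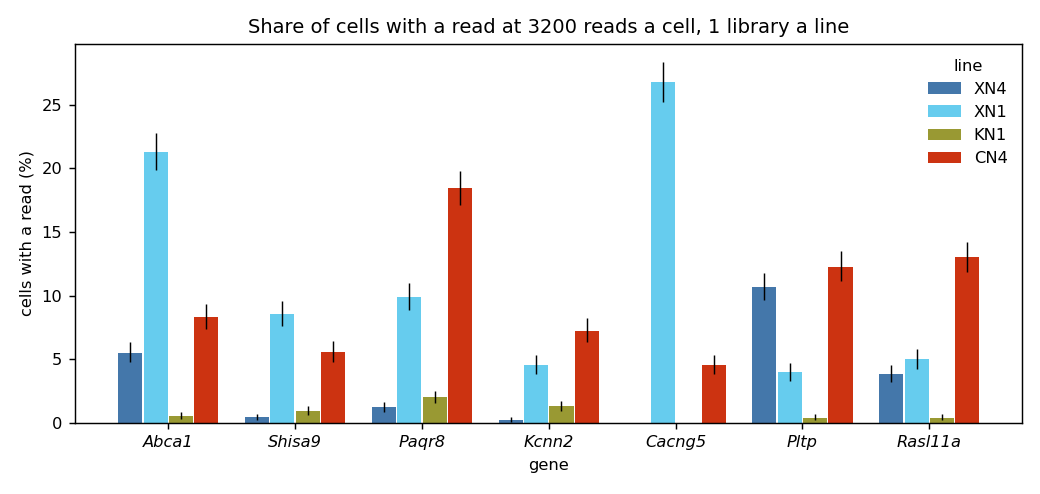
Share of cells (y axis, percent) with a read of each of the 7 genes (x axis) in the 4 lines, each cell thinned to 3200 reads. Bars are shares of the cells of 1 library per line and error bars are exact 95% binomial intervals. CN4 is highest for *Paqr8*, *Kcnn2*, *Pltp*, and *Rasl11a*, and XN1 for *Abca1*, *Shisa9*, and *Cacng5*, and *Cacng5* has no bar in XN4 and KN1, whose tables do not list it.

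The 7 genes were not particular to CN4 one by one. With every cell thinned to 3200 reads, *Abca1* was found in 21.3% of XN1 cells, 8.30% of CN4 cells, 5.50% of XN4 cells, and 0.530% of KN1 cells. *Cacng5* was also highest in XN1, at 26.8% against 4.56% in CN4, and is not listed in the XN4 and KN1 tables. *Shisa9* was found in 8.57% of XN1 cells and 5.57% of CN4 cells, with intervals of 7.61 to 9.60 and 4.80 to 6.43. *Paqr8* was highest in CN4, at 18.4% against 9.88% in XN1, and *Rasl11a* likewise, in 411 of 3158 CN4 cells against 4.99% of XN1 cells. *Kcnn2* was found in 7.25% of CN4 cells and 4.54% of XN1 cells. *Pltp* was found in 12.3% of CN4 cells and 10.7% of XN4 cells, with overlapping intervals of 11.2 to 13.5 and 9.65 to 11.8.

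Cells meeting the rule in each line are given as a description, because the genes were chosen in CN4. At 3200 reads, 62 of 3158 CN4 cells (1.96%, 1.51 to 2.51) met the rule, against 23 of 3129 XN1 cells (0.735%, 0.467 to 1.10) and 1 of 3384 XN4 cells. In KN1 0 of 3396 cells met it, which allows a share of up to 0.0883% by the floor of 3 cells and 0.109% by the exact interval. XN4 and KN1 could meet the rule through 6 of the 7 genes, since their tables do not list *Cacng5*. Thinning left out 290 shallower CN4 cells, 776 of XN1, 543 of XN4, and 579 of KN1. KN1 stands apart in complexity, with a median of 833 genes at 5862 reads, whereas CN4 had 2824 genes at 6572 reads, so the low shares in KN1 are those of a library that shows fewer genes at like depth. Its part in the KN1 values was not tested. Among CN4 cells of the normalized table, 50 carried a cell barcode that also occurs in another line's table, including 1 member.

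The rule removed dividing cells, whose shares are described here by the number of the 7 genes found. Both *Mki67* and *Top2a* were present in 54.2% (51.6 to 56.9) of the 1407 CN4 cells with 0 of the 7 genes and in 48.9% of the 1110 cells with 1. The share was 29.8% (24.2 to 36.0) with 3 genes, 27.7% (19.6 to 36.9) with 4, and 19.6% (9.36 to 33.9) with 5. At like depth, 40 of 174 cells with at least 4 of the genes were dividing (23.0%, 17.0 to 29.96), compared with 99 of 174 cells with at most 1 (56.9%, 49.2 to 64.4). In the other CN4 cells the shares were 14.7% (11.9 to 18.0) and 58.5% (54.2 to 62.6), each of 556 cells. In both sets the cells with at least 4 of the genes had the lower share.

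For the genes that the rule did not use, each member was paired with 1 comparison cell whose total reads were within 10%, which gave 134 pairs. Median depth was 7350 reads in the members and 7352 reads in the matched cells, and 2993 and 3035 genes were detected. The ratio of mean reads per 10000 was computed for the 9717 genes with a read in at least 5% of these cells. A gene was called higher or lower when the ratio passed 1.5-fold. By this measure 1730 genes (17.8%) were higher and 1946 (20%) lower, so that 47.1% of the called genes were higher. Without depth matching that share was 36.2%. The median log2 ratio of all genes was -0.06.

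In the other CN4 cells, 474 pairs gave 1366 higher genes (14%) and 1570 lower genes (16.1%) among 9774. The 2 sets of cells were read together, because a 1.5-fold ratio between means of 134 sparse cells can be counting noise. Of 1661 genes higher in the normalized table and tested in both, 1448 (87.2%) were above 1 in the other cells, against 44.5% of all genes, and 898 (54.1%) again passed 1.5-fold, against 13.7% of all genes. Of 1877 lower genes, 1653 (88.1%) were below 1, against 55.5% of all genes, and 928 (49.4%) again passed, against 15.99% of all genes. Genes past 1.5-fold in both sets, 9.45% higher and 9.77% lower of 9502 genes, are those called below unless stated. All ratios are given with the normalized table first and the other cells second.

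**Figure D2:**
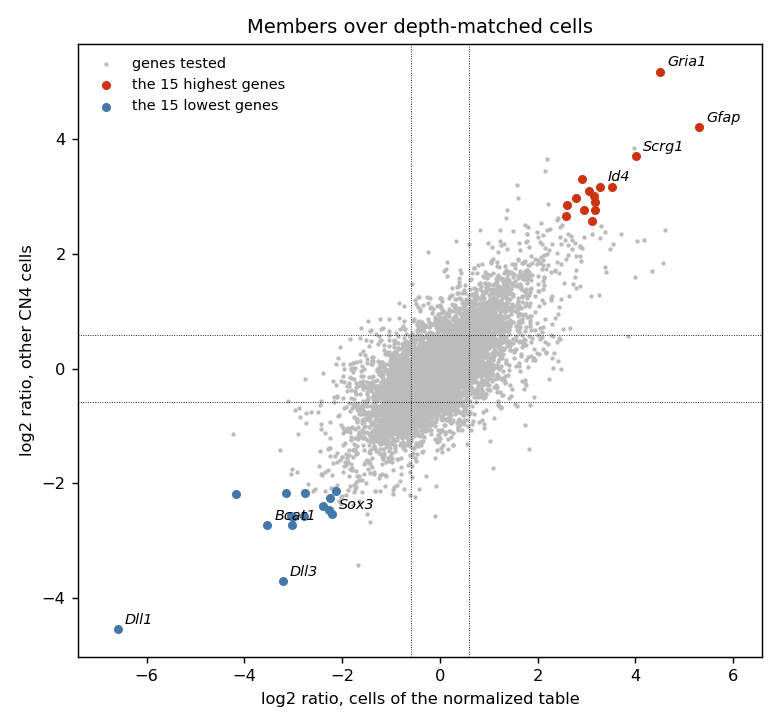
Log2 ratio of mean reads per 10000, members over depth-matched cells, in the cells of the normalized table (x axis, 134 pairs) and in the other CN4 cells (y axis, 474 pairs), with 1 point for each of 9502 genes. Dotted lines mark 1.5-fold. Red and blue points are the 15 highest and 15 lowest named genes, with *Gria1*, *Gfap*, and *Scrg1* at the upper right and *Dll1* and *Dll3* at the lower left.

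The members differed from their partners in 2 measures of RNA composition. Mitochondrial reads made up a median of 18.9% of all reads in the members and 13.8% in the matched cells, and ribosomal protein genes made up 4.45% and 7.82%. In the other cells the medians were 18.8% and 14.0% for mitochondrial reads and 4.29% and 7.49% for ribosomal protein reads. The ranges overlapped widely, from 10.0% to 41.2% in the members and 7.76% to 38.8% in the matched cells for mitochondrial reads. Members were also paired with cells of like depth and like mitochondrial or ribosomal share. With 124 pairs at median mitochondrial shares of 18.5% and 18.2%, 1525 of 9764 genes were higher (15.6%) and 1938 lower (19.8%). With 124 pairs of like ribosomal protein share, 1669 of 9741 were higher (17.1%) and 2103 lower (21.6%). The lists moved to differing degrees. At like mitochondrial share 12 of 12 astrocyte markers, 8 of 13 immediate early genes, 5 of 11 AMPA receptor genes, and 3 of 11 fatty acid synthesis genes were higher in the normalized table, compared with 12, 10, 7, and 5 in the depth-matched pairs.

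**Figure D3:**
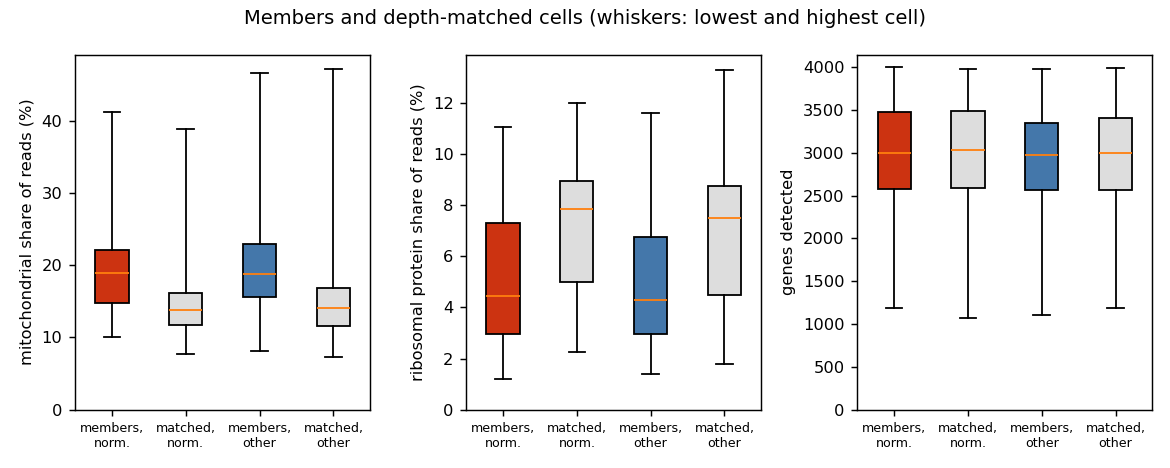
Mitochondrial share, ribosomal protein share, and genes detected (y axes) in members and depth-matched cells of the normalized table (134 pairs) and of the other CN4 cells (474 pairs). Boxes span the quartiles with the median as a line, and whiskers reach the lowest and highest cell. Members have a median mitochondrial share of 18.9% against 13.8% and a median ribosomal protein share of 4.45% against 7.82% in the normalized table.

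Astrocyte markers were higher in the members. All 12 of the tested markers passed 1.5-fold in both sets of cells, where 9.45% of all genes did, and their median log2 ratio was 1.65 and 1.79. The limit for testing was set on members and matched cells together, so markers rare in the matched cells were tested because the members had them, and the same holds for the counts of every list below. With the limit at 1% of cells, all 14 listed markers were tested in the normalized table and 13 were higher, where 21.3% of all genes were. *Gfap*, the intermediate filament of astrocytes, had a read in 34 of 134 members (25.4%, 18.3 to 33.6) and in 0 of 134 matched cells. With the matched cells set to a floor of 3 reads over the group, its ratio was 39.4 (log2 ratio 5.30). This value depends on the partners drawn and is not a lower limit. The log2 ratio of *Gfap* was 4.53 with 5 comparison cells for each member and 3.92 at like ribosomal share. In the other cells it had a read in 113 of 474 members (23.8%) and in 12 matched cells (2.53%), an 18.4-fold ratio of means. *Gfap* was thus present in a minority of the members and nearly absent from their partners.

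*Apoe*, the apolipoprotein that accepts lipid from Abca1, was found in 118 members (88.1%, 81.3 to 93.0) and 64 matched cells (47.8%, 39.1 to 56.6), and its mean was 5.34-fold and 6.13-fold higher. *Slc1a2*, a glutamate transporter of astrocytes, was found in 105 members and 57 matched cells, with ratios of 3.99 and 3.70. *Aldh1l1*, a folate enzyme used as an astrocyte marker, was found in 38 members (28.4%) and 9 matched cells (6.72%), with ratios of 6.46 and 4.94. *Aqp4*, the water channel of astrocyte endfeet, was rare in both groups, in 12 members and 4 matched cells. *Sparcl1* was found in all 134 members and in 119 matched cells, and was 3.15-fold higher. *Agt* and *Ntsr2* were found in 12 and 6 members and were below the limit for testing, and *Gjb6* is not listed in the CN4 table.

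The members held a median of 7 captured genes of the 14 astrocyte markers listed, and the matched cells held 4. The summed level of the list ranged from 15.5 to 225 reads per 10000 in the members, with a median of 66.9, and from 0 to 99.97 in the matched cells, with a median of 21.2. These ranges overlapped, so the list was raised in level and was not exclusive to the members. Restricting both groups to cells with at most 3 of the S-phase list genes left 102 pairs, in which all 12 tested markers still passed 1.5-fold with a median of 1.69. When shares of cells were compared in place of mean reads, 8 of the 12 passed, where 13.1% of all genes did.

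**Figure D4:**
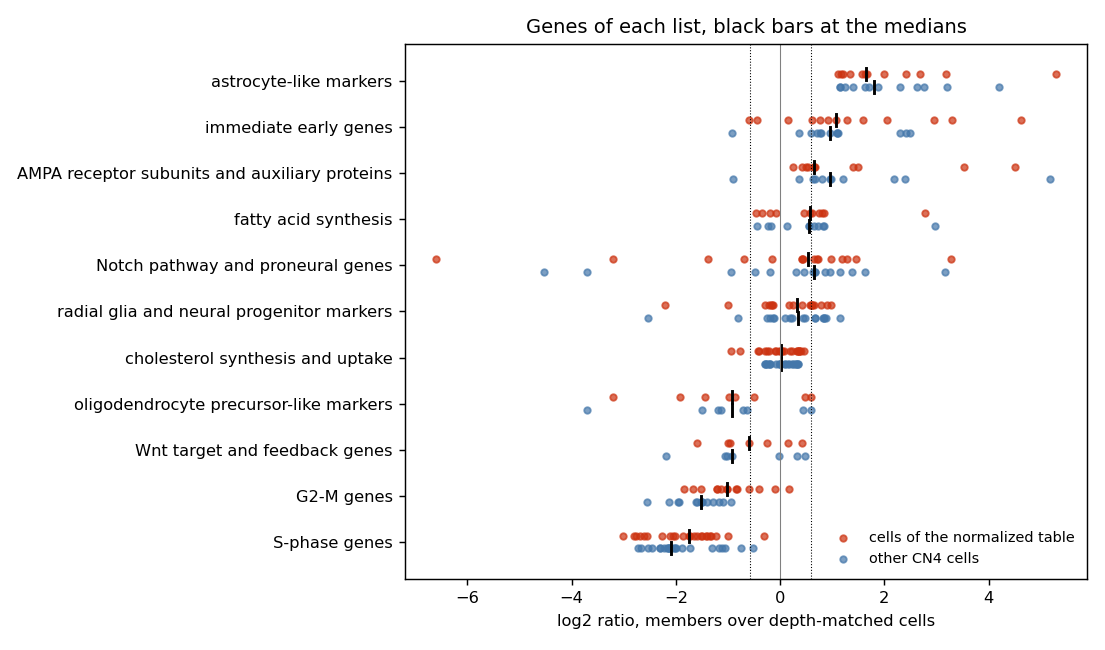
Log2 ratio of mean reads per 10000, members over depth-matched cells (x axis), of each tested gene of 11 gene lists (y axis). Red points are the cells of the normalized table (134 pairs), blue points the other CN4 cells (474 pairs), black bars the medians, and dotted lines 1.5-fold. Every astrocyte marker lies to the right of 1.5-fold, while the S-phase and G2-M medians lie to the left of it in both sets.

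Immediate early genes, which are transcribed within minutes of a stimulus, formed the next group. Of 13 tested, *Fos*, *Fosb*, *Jun*, *Junb*, *Jund*, *Egr1*, *Egr2*, *Ier2*, *Ier3*, and *Nr4a1* were higher in both sets, 1 (*Myc*) was lower, and the median log2 ratio was 1.08 and 0.96. *Fos* had a read in 112 members (83.6%, 76.2 to 89.4) and 41 matched cells (30.6%, 22.9 to 39.1), and its mean was 9.84-fold and 5.62-fold higher. *Fosb* was found in 61 members (45.5%) and 6 matched cells (4.48%), and *Junb* in 61 members and 16 matched cells. *Egr1* was found in 104 members and 59 matched cells, with ratios of 2.43 and 2.12. With like mitochondrial share, 8 of 13 were higher, where 15.6% of all genes were, and the median was 1.03. The part of RNA quality in these values was not tested beyond this matching.

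Among genes that work beside the rule genes, several were also higher. Of 11 tested AMPA receptor subunits and auxiliary proteins other than the rule genes, 6 were higher in both sets and 0 lower, with a median log2 ratio of 0.65 and 0.95. *Gria1* and *Gsg1l* were among those tested because the members had them. *Gria4*, a receptor subunit, was found in 85 members (63.4%) and 47 matched cells (35.1%), with ratios of 2.64 and 2.31. *Shisa6*, an auxiliary protein related to Shisa9, was found in 26 and 8 cells, with ratios of 2.80 and 5.26. *Gria1* had 48 reads in 16 members and 1 read in 1 matched cell, a ratio of summed reads of 48.0 with an interval of 8.21 to 1934. Intervals of summed reads, here and below, treat reads of the same cell as independent and can be too narrow. *Gsg1l* had 21 reads and 2 reads, respectively, a ratio of 10.5 (2.57 to 92.3). *Cacng4* and *Cnih2* were the other 2 genes higher, each by 1.57-fold in the normalized table.

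Of 12 potassium channel genes tested, *Kcnma1*, *Kcnn3*, and *Kcnq3* were higher in both sets. The list went both ways, with 4 higher and 1 lower in the normalized table and 4 higher and 5 lower in the other cells. *Kcnn3*, of the same calcium-activated family as Kcnn2, was found in 27 members and 10 matched cells, with ratios of 3.04 and 2.09. Of 4 Paqr family and Ras-like genes tested in both sets, *Paqr4*, *Paqr7*, and *Rasl10b* were higher. Of these 3, only *Paqr7* encodes a membrane progestin receptor like Paqr8. *Paqr7* was found in 20 members (14.9%) and 6 matched cells (4.48%), with ratios of 4.29 and 5.04.

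The other liver X receptor targets and lipid efflux genes did not move as one group. Besides *Abca1* and *Pltp*, which the rule used, 7 were tested and *Apoe* and *Lpcat3* were higher in both sets. *Lpcat3*, a phospholipid-remodeling enzyme, was 1.77-fold and 1.66-fold higher. *Srebf1*, a further target of these receptors, was found in 52 members and 62 matched cells, with ratios of 0.607 and 0.981. Of 23 cholesterol synthesis and uptake genes tested in both sets, 0 were higher and 0 lower, and the median log2 ratio was 0.01 and 0.02. Of 11 fatty acid synthesis genes, *Fads1*, *Me1*, *Scd1*, and *Thrsp* were higher and 0 lower. *Thrsp*, a lipogenic regulator, was found in 23 members (17.2%) and 4 matched cells (2.99%), with ratios of 6.90 and 7.88. *Scd1*, a desaturase, was 1.67-fold and 1.76-fold higher. By shares of cells, 1 of the 11 was higher, with a median log2 ratio of 0.09.

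Genes of Notch signaling went both ways. *Dll1*, a Notch ligand, had 1 read in 1 member and 56 reads in 19 matched cells, a ratio of summed reads of 0.0179 (0.000444 to 0.104), and in the other cells it was found in 7 of 474 members and 65 of 474 matched cells. *Dll3*, a ligand-like protein, was found in 4 members and 15 matched cells. In turn, *Hes1*, *Hes5*, *Hey1*, and *Nrarp*, which Notch activity induces, and the receptor *Notch3* were higher in both sets. *Hes5* was found in 45 members and 27 matched cells with ratios of 1.96 and 2.21, and *Notch3* in 75 and 42 cells with ratios of 2.75 and 2.60. *Id4*, an inhibitor of proneural factors, was found in 64 members (47.8%, 39.1 to 56.6) and 10 matched cells (7.46%, 3.64 to 13.3), with ratios of 9.75 and 9.01. Of the 16 genes of the list, 7 were higher in both sets, and *Notch1* passed in neither, with log2 ratios of -0.15 and -0.20.

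Markers of radial glia and neural progenitors remained present in the members. *Vim* had a read in 99.3% of members and 100% of matched cells, and *Fabp7* in 100% and 99.3%. Of 18 tested, 6 were higher in both sets, among them *Sox9* (ratios 1.86 and 1.84), *Sox2* (1.52 and 1.78), and *Slc1a3*, and 2 were lower. The lower genes were *Nes*, an intermediate filament of neural stem cells, found in 67.2% and 84.3% of cells, and *Sox3*. *Sox3*, a progenitor factor of the same family as Sox2, was found in 32 members (23.9%, 16.9 to 32.0) and 73 matched cells (54.5%, 45.7 to 63.1), with log2 ratios of -2.21 and -2.54. By shares of cells, 2 of the 18 radial glia and progenitor markers were higher and 1 lower in the normalized table. By that measure 13.1% of all genes were higher and 13.3% lower. Markers of the NSC label were thus present in both groups, at levels that differed gene by gene.

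Markers of oligodendrocyte precursors were lower. Of 8 tested, *Dll3*, *Lhfpl3*, *Nkx2-2*, *Olig1*, and *Olig2* were lower in both sets and *Bcan* was higher, with a median log2 ratio of -0.92 in each set. By shares of cells, 3 of the 8 were lower in the normalized table, where 13.3% of all genes were, with a median of -0.28. *Olig2*, a factor of the oligodendrocyte lineage that also marks ventral progenitors, was found in 100 members (74.6%) and 124 matched cells (92.5%), at means of 4.71 and 12.7 reads per 10000. The defining markers *Pdgfra*, *Sox10*, and *Cspg4* were found in 2, 0, and 0 members. These counts describe the members alone and are not a comparison with the matched cells. Of the 4 neuron markers tested in both sets, *Gap43* and *Map2* were lower and none was higher, where 9.77% of all genes were lower. *Tubb3* and *Stmn2* were found in 1 and 0 members, which again describes the members alone. Of the other cell types examined, *Foxj1* of ependymal cells was found in 1 member, *Pou5f1* of the epiblast in 0, and *Tmem119* of microglia in 0. No gene of the ependymal, epiblast, and microglia lists reached the limit for testing, so no difference from the matched cells is read.

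Replication genes were lower in the members although both groups had been chosen as nondividing. Of 24 S-phase genes tested, 22 were lower in both sets, where 9.77% of all genes were, and 0 were higher, with a median log2 ratio of -1.74 and -2.10. *Mcm6*, a subunit of the replicative helicase, was found in 19 members (14.2%, 8.76 to 21.3) and 57 matched cells (42.5%, 34.0 to 51.4), with log2 ratios of -1.86 and -1.88. *Uhrf1*, which maintains DNA methylation at replication forks, was found in 12 and 46 cells, and *Pcna*, the polymerase clamp, in 58 and 96. A member held a median of 2 captured S-phase genes, and a matched cell 5.5 with quartiles of 2 and 11. The comparison cells therefore include many that hold replication transcripts, which the absence of *Mki67* or *Top2a* does not remove. In the 102 pairs with at most 3 of these genes a cell, a limit set on the list itself, 9 of the list could be tested, of which 2 were higher and 2 lower with a median of -0.15. In these pairs 18.4% of all genes were higher and 20.2% lower.

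G2-M genes were also lower, 11 of the 14 tested in both sets and 0 higher, with a median log2 ratio of -1.02 and -1.51. This depended on the rule for dividing cells. Where both groups had neither *Mki67* nor *Top2a*, 4 of 10 tested were lower and 2 higher, with a median of -0.42, while 22.5% of all genes were lower and 20.4% higher. With at least 5 of the rule genes, 7 of 16 were lower and 3 higher, while 27.2% of all genes were lower and 22.4% higher. *Cdk1*, the kinase of mitotic entry, was found in 18 members and 30 matched cells. Among members, 82 had neither *Mki67* nor *Top2a* (61.2%), compared with 642 of the 1211 comparison cells, 38 had *Top2a* alone, and 14 had *Mki67* alone. The list of cell cycle exit genes and inhibitors of cyclin-dependent kinases went both ways. It also holds *Ccnd1*, a cyclin, so a lower *Ccnd1* is not a fall of an exit gene. Of 19 tested in both sets, *Cdkn1a*, *Foxo3*, and *Rb1* were higher, and *Ccnd1*, *Cdkn1c*, *Rbl1*, and *Trp53* were lower. Of all genes, 9.45% were higher and 9.77% lower in both sets. *Cdkn1a*, an inhibitor of cyclin-dependent kinases, was found in 78 and 60 cells, with ratios of 1.78 and 2.04, while *Ccnd1*, the cyclin of G1, was found in 103 and 124 cells at means of 11.6 and 23.2 reads per 10000.

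The E2F letters shown in capitals in the promoters above were more common among the lower genes. They were found in 6 of the 12 lowest genes with a promoter in the table, namely *Uhrf1*, *Rad51ap1*, *E2f7*, *Hells*, *Dtl*, and *Nrm*. Of the 928 genes lower in both sets, 753 had a promoter in the table and 124 of these held the letters (16.5%), compared with 704 of 7655 tested genes with a promoter (9.20%) and 4.66% of all promoters. For the genes higher in both sets this check is void, because 79.2% of them had a promoter in the table and at least 80% was required.

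Wnt targets are of interest because CN4 was kept in CHIR99021. Of 7 tested, *Ccnd1*, *Lgr5*, *Myc*, and *Nkd1* were lower in both sets and 0 higher. *Lgr5*, a receptor of R-spondins, was found in 13 members and 25 matched cells. *Axin2*, a widely used readout of Wnt activity, was found in 50 members (37.3%, 29.1 to 46.1) and 53 matched cells (39.6%, 31.2 to 48.4), with log2 ratios of 0.14 and -0.03. The list was therefore divided between lower genes and *Axin2*, *Tnfrsf19*, and *Znrf3*, which did not pass in both sets.

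Of 16 ERK feedback and receptor genes, *Etv4*, *Fgfr1*, and *Fgfr2* were higher in both sets and *Egfr* was lower. Of all genes, 9.45% were higher and 9.77% lower in both sets. The median log2 ratio of the list was 0.02 and 0.12, so the list as a whole did not move. *Egfr*, the receptor of the EGF in the medium, was found in 47 members (35.1%) and 76 matched cells (56.7%), with log2 ratios of -1.08 and -0.81. *Fgfr1* was found in 97 and 61 cells, with log2 ratios of 0.66 and 0.79. Of 9 BMP and TGF-beta genes tested, *Tgfb2* was higher and *Bmp7* and *Tgfbr1* were lower. The median log2 ratio of these 9 was 0.32 and 0.34. *Tgfb2*, a TGF-beta ligand, was found in 91 and 47 cells, with log2 ratios of 1.55 and 1.43.

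Few Hox genes, which mark axial identity, passed 1.5-fold in both sets, but their medians lay above that of all genes. Of 19 Hox genes tested in both sets, *Hoxc5* and *Hoxc6* were higher and 0 were lower. *Hoxa5* was found in 59.7% of members and 55.2% of matched cells, and *Hoxb9* in 69.4% and 68.7%. Of the dorsoventral factors, *Irx3* and *Pax3* were higher in both sets, and *Nkx2-2* and *Olig2* were lower. *Pax3*, a factor of dorsal progenitors, was found in 30 members (22.4%) and 12 matched cells (8.96%).

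Among stress and hypoxia genes, *Txnip*, an inhibitor of thioredoxin and of glucose uptake, was found in 31 members and 9 matched cells, with ratios of 5.65 and 5.70. *Ddit4* was also higher in both sets, and *Asns* was lower. Of 16 glycolysis and hypoxia genes, *Bnip3*, *Egln3*, *Pdk1*, *Pfkfb3*, *Pfkl*, and *Vegfa* were higher, whereas *Gapdh*, *Pgk1*, and *Ldha* passed in neither set. Of 13 p53 targets, *Bbc3*, *Ccng1*, *Cdkn1a*, *Phlda3*, and *Sesn1* were higher and *Plk2* was lower. With like mitochondrial share the median log2 ratio of the p53 targets was 0.02, against 0.42 in the depth-matched pairs. *Malat1* was higher among 4 nuclear long noncoding RNAs, and 3 mesenchyme genes and 2 neural crest genes could be tested in both sets, of which *Pax3* was higher and *Ets1* lower.

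Beyond these lists, the genes with the largest ratios in both sets included *Scrg1*, *Igsf11*, *Mt3*, and *S1pr1*. The ranking depended on the limit for testing, which some genes, such as *Slc41a3* and *Gria1*, passed because the members had them. With the limit at 20% of cells, 4 of the 15 highest and 3 of the 15 lowest genes were tested. *Igsf11*, an adhesion protein of the immunoglobulin family, was found in 78 members (58.2%, 49.4 to 66.7) and 18 matched cells (13.4%, 8.16 to 20.4), with ratios of 8.84 and 8.01. *Mt3*, the brain metallothionein, was found in 69 and 19 cells, and *S1pr1*, a receptor of sphingosine phosphate, in 76 and 17. *Scrg1* was found in 39 and 5 cells, and *Adra2a*, an adrenergic receptor, in 25 and 5. *Mgll*, which degrades monoacylglycerols, had reads in 19 and 2 cells, and *Slc41a3* in 20 and 0. *Ppp2r2c*, *Hspb1*, *Fam227b*, and *Clu* completed the 15 highest with *Gria1*, *Gfap*, *Id4*, and *Thrsp*.

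Of the 15 lowest genes, *Uhrf1*, *Dtl*, and *Clspn* belong to the S-phase list and *Dll1* and *Dll3* to the Notch list. Some of the 15, such as *Dll1* and *Exo1*, passed the limit for testing because the matched cells had them. Apart from *Dll1*, *Dll3*, *Uhrf1*, and *Sox3*, they were *Bcat1*, *Nrp2*, *Rad51ap1*, *E2f7*, *Hells*, *Dtl*, *Nrm*, *Exo1*, *Clspn*, *E2f2*, and *Ccna2*. *Bcat1*, an aminotransferase of branched-chain amino acids, had 3 reads in the members and 36 in the matched cells, a ratio of 0.0833 (0.0164 to 0.264). *Nrp2*, a semaphorin receptor, was found in 8 members and 24 matched cells. *Hells*, a chromatin remodeler, was found in 15 and 51 cells, and *Ccna2*, the S and G2 cyclin, in 11 and 33. In the 102 pairs with at most 3 S-phase list genes a cell, only 7 of the 15 lowest genes reached the limit for testing. These 7 passed 1.5-fold. All 15 of the highest genes were tested and passed in those pairs.

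**Figure D5:**
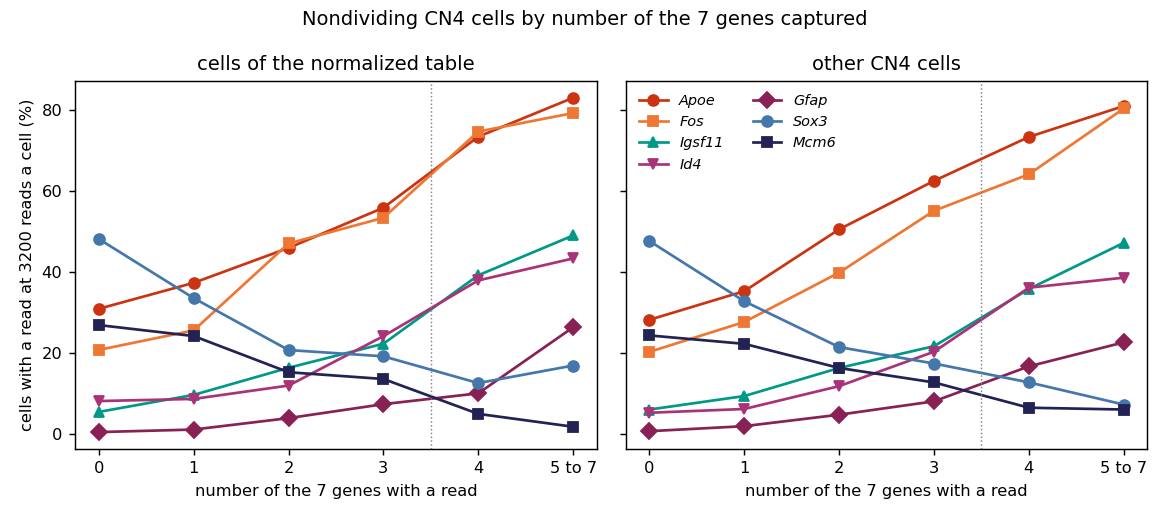
Share of nondividing CN4 cells with a read (y axis, percent, each cell thinned to 3200 reads) of 7 genes that the rule did not use, by the number of the rule genes captured (x axis), in the normalized table (left) and the other CN4 cells (right). The dotted line marks the rule's threshold. *Apoe*, *Fos*, *Igsf11*, *Id4*, and *Gfap* are higher to the right of it and *Sox3* and *Mcm6* lower, with cells of 2 or 3 genes in between.

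These levels differed along the number of rule genes captured. In cells thinned to 3200 reads, *Apoe* was found in 30.98% of the 523 nondividing cells with 0 of the genes, 37.4% with 1, 46.0% with 2, 55.9% with 3, 73.4% with 4, and 83.0% of the 53 cells with 5 or more. *Igsf11* was found in 5.54%, 9.74%, 16.4%, 22.4%, 39.2%, and 49.1%. Cells with 3 genes lay between those with 2 and 4 for both. *Mcm6* went the other way, from 27.0% with 0 genes to 13.7% with 3, 5.06% with 4, and 1.89% with 5 or more. The other CN4 cells showed the same order for *Apoe*, from 28.3% to 81.0%, and for *Gfap*, from 0.791% to 22.7%. The median mitochondrial share also moved, from 14.4% with 0 genes to 18.5% with 5 or more. *Sox3* was found in 19.3% of cells with 3 genes, 12.7% with 4, and 17.0% with 5 or more in the normalized table, and in 17.5%, 12.8%, and 7.36% in the other cells.

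The members lay near each other when the cells were ordered without the rule genes. Among the 30 nearest neighbors of each member, in 30 components of 2000 variable genes without the 7 genes, *Mki67*, and *Top2a*, 31.2% were members, whereas their depth gave 4.32%, a ratio of 7.23. The same cells recur as neighbors of several members, so no interval is given. Against nondividing neighbors of like depth alone, which gave 8.85%, the ratio was 3.53. Without the genes of the S-phase and G2-M lists the ratio was 7.22 against all cells of like depth and 3.57 against nondividing ones. The median member had 9 member neighbors and 8 members had 0.

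Longer genes had somewhat higher ratios. Of 9502 genes, 99.7% had a length in the annotation. The median log2 ratio was -0.12 in the shortest of 3 equal groups of genes, -0.07 in the middle group, and -0.0014 in the longest group, and 8.61%, 8.04%, and 11.7% of these genes were higher in both sets. The shares lower in both sets were 11.8%, 10.3%, and 7.29%, so that lower genes outnumbered higher ones among short genes and the reverse held among long genes.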

How the data were processed

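One BD Rhapsody library was sequenced for each of the 4 lines. For CN4, the authors deposited a read count of each gene in each of 18157 cells (180825519 reads), which per the file headers came from the BD Rhapsody WTA pipeline (1.12.1) on GRCm38 and GENCODE M19 and include intronic reads. These are reads and not molecular identifiers, so intervals and floors cover counting error only. Each line also has a normalized table of cells that the study's methods call randomly selected, made with Seurat 4.3.0 per the labels after the authors removed mitochondrial and ribosomal protein genes. Its deposited values are the natural log of 1 plus reads per 10000. Undoing the log gave whole reads (tolerance 0.01) that matched the CN4 read counts in every value. No cell of the normalized CN4 table had more than 3999 genes, and of the 14709 cells left out of it 12144 lay within its range of reads and genes. The read tables of XN4 and XN1 were not used here.

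Doublets were not removed. Members and matched cells were paired 1 to 1 on total reads within 10%. Genes with a read in at least 5% of paired cells were tested, and a group at 0 was set to 3 reads. Members and the 29 gene lists were chosen with earlier results of these data known. Named genes are those of the rule, the 15 highest and 15 lowest by the smaller log2 ratio of both sets of cells, without predicted genes, and of each list those past 1.5-fold in both sets or else the 2 most captured. Any other list gene named, such as *Axin2*, *Srebf1*, *Vim*, and defining markers at or near 0, was chosen after their values were seen. With 1 library a line no p-value was computed. Python 3.11.15, numpy 2.4.6, scipy 1.17.1, scanpy 1.11.5, and scikit-learn 1.9.0 were used. Some items are not reported here.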

Additional observations from a re-analysis of the deposited data

How the results depend on the processing

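Counts of genes past 1.5-fold depended on the settings. The number of higher genes was 1730, and became 1098 without depth matching, 2659 with a filter at 1% of cells, 723 with a filter at 20%, and 809 at 2-fold. The number of lower genes was 1946, and became 844 with the 20% filter, 1180 with at least 3 of the 7 genes, 1295 with the ratio of shares, 3044 with at least 2 reads for capture, and 793 at 2-fold. Members numbered 53 with at least 5 genes, 308 with at least 3, 82 with neither *Mki67* nor *Top2a*, and 40 with at least 2 reads. The 30 ranked genes were chosen as extreme in both sets of cells, and some alternatives repeat their values by construction, so their 507 of 508 values past 1.5-fold say little of stability. The exception was *Hspb1* with at least 2 reads (log2 ratio 0.07). Matching on mitochondrial or ribosomal share, 5 comparison cells for each member, and the limit on S-phase genes were chosen after seeing the data.

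Of 299 list medians under alternatives, 285 stayed within the interval of the median. They also did not turn a median past 1.5-fold to the other direction. In short lists this interval can be the full range of the list, so the count says little of their stability. For the 7 liver X receptor target and lipid efflux genes it ran from -1.82 to 2.42. Their median of 0.47 was -0.0041 in the other cells and still counted as within it. The G2-M median was -0.40 with at least 5 genes, -0.42 with neither *Mki67* nor *Top2a*, -1.48 without depth matching, and -1.51 in the other cells. The S-phase median was -1.15 with at least 3 genes and -1.34 at like mitochondrial share. The p53 median was 0.016 at like mitochondrial share, and that of nuclear long noncoding RNAs was -0.64 without depth matching. The median of neuron markers was -0.51 with at least 3 genes, and that of mesenchyme markers was 0.39 against cells with 0 of the genes. For Paqr family and Ras-like genes the median was 2.32 without S-phase cells. The dorsoventral median of 0.62 was -0.025 when matched on genes detected, -0.43 at like ribosomal share, and -0.027 without depth matching, and the cause was not tested.

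Among cells chosen by the other 6 genes, the gap for *Pltp* was 27.3 points without depth matching and 27.4 when matched on genes detected, and that for *Rasl11a* was 12.7 points without depth matching. Without thinning, 2.05% of XN1 cells and 3.89% of CN4 cells met the rule. The neighbor ratio was 8.04 without depth groups and 7.90 with 10 components. The share of higher genes above 1 in the other cells was 85.0% when matched on genes detected. The gap in dividing cells was 41.4 points when matched on genes detected and 43.7 in the other cells. No paired analysis was possible because each line has 1 library.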
